A study of Ovis aries with 12 samples.

Results

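Collagens are the triple-helical proteins of the extracellular matrix, and their genes were followed here in sheep hippocampus. The members are all rows of the deposited gene count table whose symbol is COL, a type number, A and a chain number. There were 42 such genes among 33609 in the table, and all 42 had counts high enough to be tested. COL25A1 and COL19A1 stood in the table under placeholder names and are identified by NCBI GeneID through a RefSeq gene table. They are described beside the 42 and not counted among them.

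RNA sequencing was carried out on dorsal and ventral hippocampus of 12 adult ewes of the Ile-de-France breed, 6 kept under chronic stress and 6 under control conditions. Each library pooled RNA of 2 ewes, and the 4 groups, dorsal stress, dorsal control, ventral stress and ventral control, hold 3 libraries each. What the chronic stress consisted of is not given in the sources used here. Both regions came from the same ewes, so libraries of one region and the other are not independent animals, and pooling hides the spread between single ewes.

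Each collagen chain carries repeats of glycine and a pair of further residues, and 3 chains wind into one molecule. Fibrillar collagens form the cables of connective tissue, type IV forms the mesh of basement membranes around blood vessels, type VI forms beaded filaments, and the FACIT collagens decorate fibrils. Transmembrane collagens sit in the cell surface and can be shed from it. In brain, fibrillar collagens are known from the meninges and the fibroblasts along vessels, type IV from the vessel wall, and a few transmembrane and FACIT chains from neurons.

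Total counts were 12254743 to 21244822 in dorsal stress, 24952808 to 53775720 in dorsal control, 24910994 to 33132246 in ventral stress and 19801665 to 45404523 in ventral control libraries. Markers of hippocampal granule cells and of excitatory neurons were counted in every library, with 0 of 8 and 0 of 7 list genes at 0. Levels are given in CPM, counts relative to the library total after TMM normalization, and are compared between groups for one gene at a time, since transcript lengths were not used. The 42 genes took 0.0702% to 0.0743% of counts in dorsal stress and 0.0715% to 0.0799% in dorsal control libraries. The share was 0.0963% to 0.118% in ventral stress and 0.0879% to 0.117% in ventral control libraries. Their summed level was thus 726 ± 13.6 and 764 ± 13.3 CPM in dorsal stress and dorsal control, and 1060 ± 105 and 1010 ± 150 CPM in ventral stress and ventral control (SD, n = 3 each). No dorsal library reached the lowest ventral one, 853 CPM.

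The region comparison asked which collagen genes differ between the poles, taking the mean of both conditions. Of the 42 genes, 10 were lower and 1 was higher in dorsal than in ventral hippocampus (edgeR quasi-likelihood test, Benjamini-Hochberg adjusted p under 0.05 over all genes tested). That is 26.2% of the members, against 4.51% of all 17806 genes tested, of which 3.07% were lower and 1.44% higher in dorsal tissue. COL6A6 is among the members called lower, though it met the filter on counts through its ventral libraries alone. The median log2 fold change of the members was -0.44, against -0.02 over all genes, and 31 of the 42 were negative. Every dorsal library lay below every ventral one for 8 members and above for 2, while this held for 2.93% and 1.97% of all genes. An unadjusted p under 0.05 was found for 23 members, against 13.7% of all genes. In bulk tissue, fewer cells of a type and less RNA per cell cannot be told apart. The number of members called fell to between 5 and 7 without dorsal stress 2, dorsal control 1, 2 or 3, or ventral stress 2 or 3. COL13A1, COL14A1, COL1A2, COL6A5 and COL17A1 were called whichever single library was left out.

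**Figure D1:**
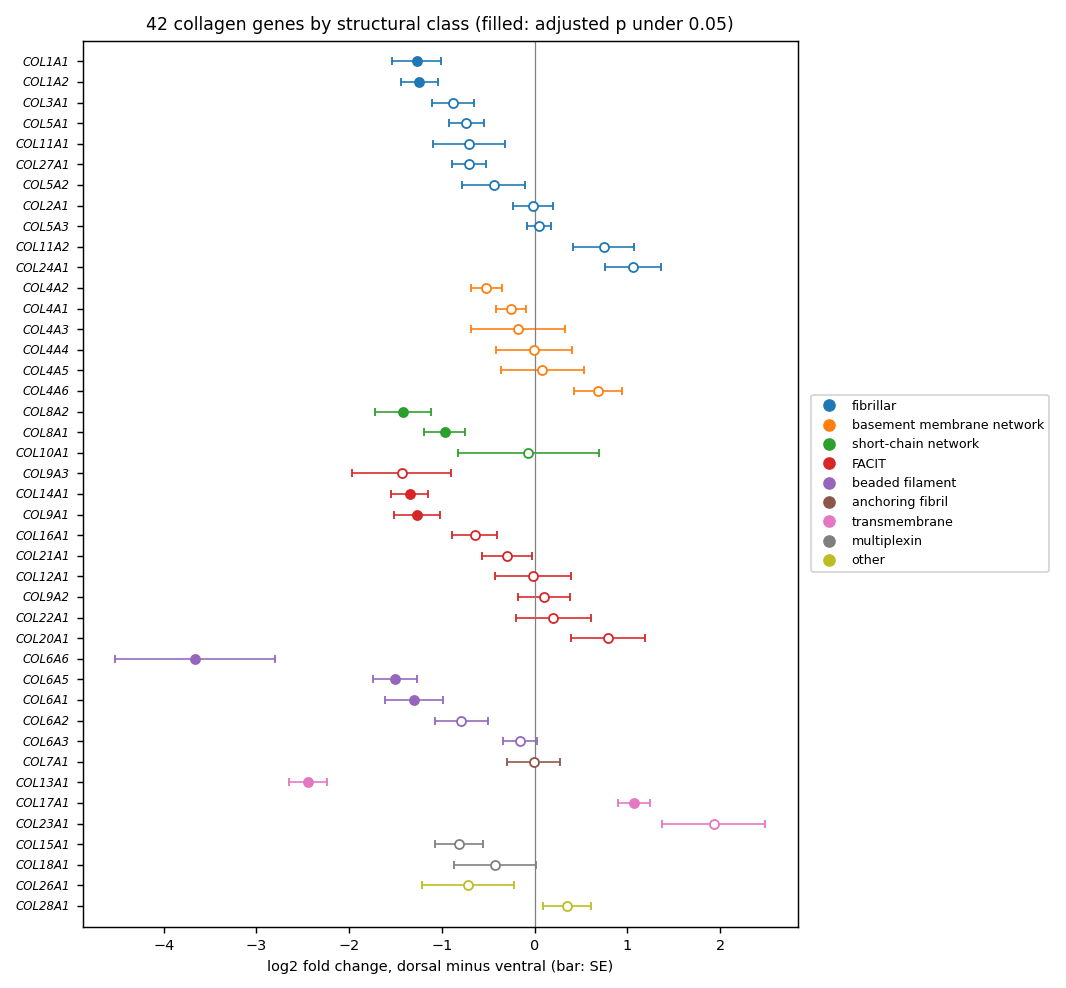
Log2 fold change of each of the 42 collagen genes, dorsal minus ventral, with its SE, coloured by structural class, and filled where the adjusted p was under 0.05. The 11 filled points lie to the left of 0 except COL17A1, with COL6A6 and COL13A1 farthest to the left.

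Of the 3 transmembrane collagens, 1 fell and 1 rose in dorsal tissue. COL13A1, a cell surface collagen known from the neuromuscular junction, had 11.2, 6.03 and 7.44 CPM in dorsal stress and 8.53, 8.84 and 9.77 CPM in dorsal control libraries. Its ventral levels were 43.8, 56.1 and 40.1 CPM in stress and 36.2, 62.8 and 42.4 CPM in control libraries. Every ventral library was far above every dorsal one. The log2 fold change was -2.44 ± 0.21 (SE), a 5.43-fold lower level in dorsal tissue (edgeR adjusted p = 0.00035).

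COL17A1, a transmembrane collagen of skin hemidesmosomes, went the other way. It stood at 17.0, 15.8 and 13.2 CPM in dorsal stress and 10.5, 13.5 and 15.0 CPM in dorsal control libraries, against 7.51, 5.77 and 5.6 CPM in ventral stress and 8.75, 5.56 and 7.25 CPM in ventral control libraries. The regions did not overlap, and the log2 fold change was 1.07 ± 0.18 (edgeR adjusted p = 0.00667). COL23A1, the third transmembrane member, had 18.5, 13.5 and 9.89 CPM in dorsal stress and 20.4, 12.4 and 15.3 CPM in dorsal control libraries. In ventral tissue it had 8.44, 2.53 and 2.3 CPM in stress and 7.81, 1.89 and 0.672 CPM in control libraries. All dorsal libraries were above all ventral ones, but the ventral libraries differed widely among themselves, and the value of 1.93 ± 0.55 did not pass (edgeR adjusted p = 0.0869). It did pass without ventral control 1 (edgeR adjusted p = 0.00799), in DESeq2 (0.00440) and limma-voom (0.0277) and with either replicate block (0.00430 and 0.0223). With the first residual component as covariate the edgeR adjusted p was 0.00123. That component was drawn from the residuals of these same counts and shrinks the spread left, so it is no independent support. The log2 fold change of COL23A1 lay between 1.94 and 2.67 in all these fits.

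COL25A1, a neuronal transmembrane collagen whose shed part is found in amyloid plaques, was the fourth of this class and was listed under a placeholder name. Its counts were low, between 5 and 44 per library, and it met the filter on counts through its dorsal libraries, where it is high. It had 0.995, 1.06 and 1.80 CPM in dorsal stress and 0.866, 0.742 and 0.430 CPM in dorsal control libraries, against 0.232, 0.198 and 0.358 CPM in ventral stress and 0.240, 0.496 and 0.224 CPM in ventral control libraries. The regions overlapped where the lowest dorsal control library lay below the highest ventral control library, and the log2 fold change was 1.69 ± 0.37 (edgeR adjusted p = 0.0275). This call was lost without any one of 8 libraries, the highest adjusted p being 0.0881, with a replicate block of condition by number (0.0518) and in thinned counts (0.115).

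**Figure D2:**
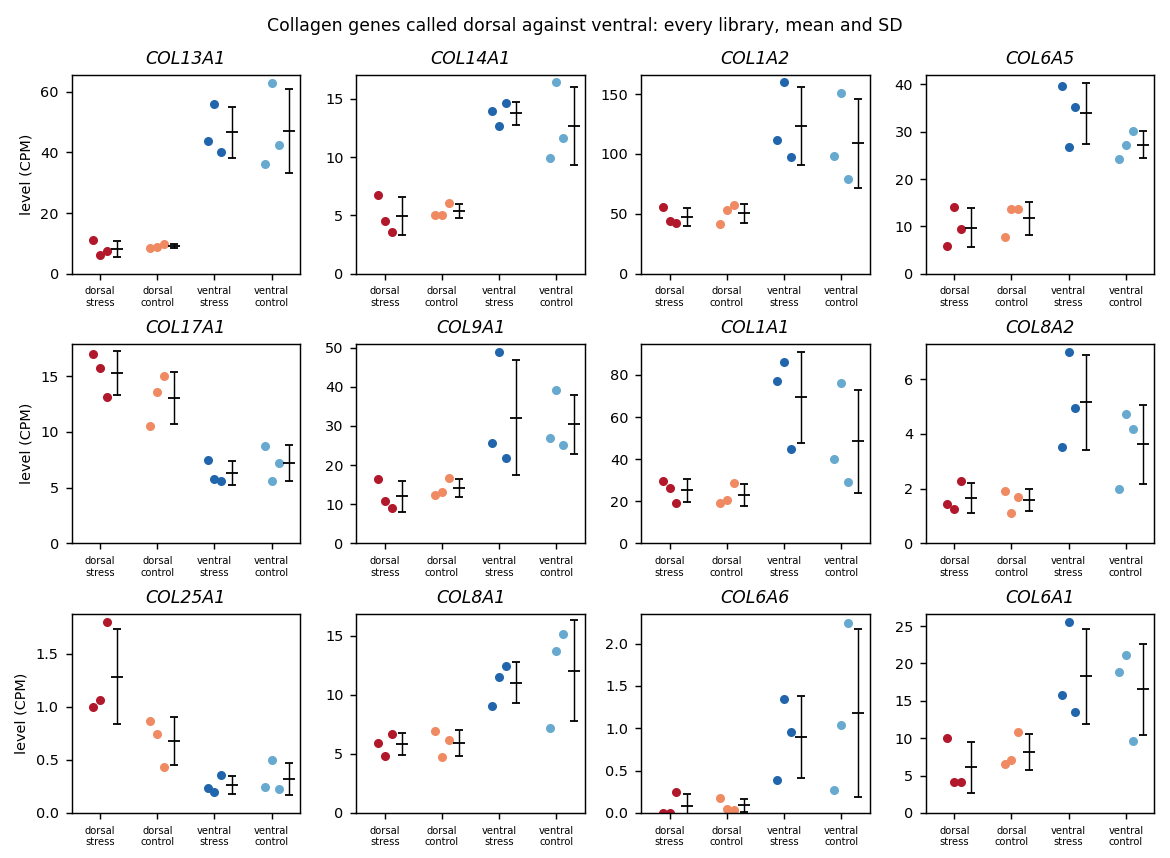
Level in CPM of the 11 collagen genes called between regions and of COL25A1, with each point 1 library and bars giving mean and SD of 3 libraries. COL13A1 shows dorsal libraries at or below 11.2 CPM and ventral ones at or above 36.2 CPM, and COL17A1 and COL25A1 are the genes with higher dorsal points.

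Fibrillar collagens, 11 genes, held 2 that fell in dorsal tissue, the chains of type I collagen. COL1A2 had 56.0, 43.8 and 42.6 CPM in dorsal stress and 41.7, 52.9 and 57.1 CPM in dorsal control libraries. It had 112, 160 and 97.8 CPM in ventral stress and 98.0, 151 and 78.7 CPM in ventral control libraries. No dorsal library reached a ventral one, and the log2 fold change was -1.24 ± 0.20 (edgeR adjusted p = 0.00571). COL1A1 stood at 29.8, 26.3 and 19.3 CPM in dorsal stress and 19.2, 20.4 and 28.9 CPM in dorsal control libraries, against 76.9, 86.2 and 45.0 CPM in ventral stress and 40.2, 76.0 and 29.0 CPM in ventral control libraries. The highest dorsal library lay just above the lowest ventral one, and the value was -1.27 ± 0.27 (edgeR adjusted p = 0.0231). COL1A1 lost its call without any one of 6 libraries (highest adjusted p = 0.0716).

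Several fibrillar genes lay close to the threshold. COL27A1 (-0.71 ± 0.18, edgeR adjusted p = 0.05004), COL3A1 of reticular fibres (-0.88 ± 0.22, 0.0524) and COL5A1 (-0.74 ± 0.19, 0.0537), whose chain helps start type I fibrils, lay just above it. With the replicate number as a block all of these passed in edgeR (adjusted p = 0.0258 for COL27A1, 0.0135 for COL3A1 and 0.0168 for COL5A1), and with a block of condition by number COL3A1 passed (0.0255). All 3 passed in DESeq2 as well (adjusted p = 0.00722, 0.00544 and 0.00989). COL27A1 and COL3A1 also passed with a filter of 1 CPM in 3 libraries and in thinned counts. None of the 3 passed with RLE factors, without a filter or in limma-voom. The regions did not overlap for COL27A1, which ranged from 25.0 to 28.8 CPM over dorsal and from 29.5 to 63.2 CPM over ventral libraries. COL5A1 ranged from 35.7 to 52.1 CPM over dorsal and from 50.0 to 89.8 CPM over ventral libraries. On the other side lay COL24A1 (1.06 ± 0.30, edgeR adjusted p = 0.0809), with 39.1 to 92.7 CPM over dorsal and 19.5 to 45.0 CPM over ventral libraries, and COL11A2 (0.74 ± 0.33, 0.340). COL24A1 passed in DESeq2 (adjusted p = 0.0115). With the replicate number as a block COL24A1 and COL11A2 passed in edgeR (adjusted p = 0.0336 and 0.0408). COL11A1 (-0.71 ± 0.39), COL5A2 (-0.44 ± 0.34), COL2A1 (-0.01 ± 0.22) and COL5A3 (0.05 ± 0.13) completed the class, and their edgeR adjusted p was 0.540 or above.

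Beaded filament genes of type VI all had negative values, and 3 of the 5 fell. COL6A5 stood at 5.87, 14.0 and 9.40 CPM in dorsal stress and 7.70, 13.8 and 13.6 CPM in dorsal control libraries. Its ventral levels were 39.6, 26.8 and 35.1 CPM in stress and 24.3, 27.3 and 30.1 CPM in control libraries. The regions were fully apart, with a log2 fold change of -1.51 ± 0.24 (edgeR adjusted p = 0.00578). The neighbouring gene COL6A6 was rarely counted, with 0, 0 and 3 counts in dorsal stress and 9, 2 and 1 in dorsal control libraries, against 10, 34 and 32 counts in ventral stress and 11, 21 and 80 in ventral control libraries. It fell by 3.66 ± 0.86 on the log2 scale (edgeR adjusted p = 0.0376), a size that rests on very few dorsal counts. COL6A6 met the filter on counts through its ventral libraries alone, where it is high, so its call is weak support for a difference.

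The classical type VI chains COL6A1, COL6A2 and COL6A3 had log2 fold changes of -1.30 ± 0.31, -0.79 ± 0.29 and -0.16 ± 0.19, of which COL6A1 passed (edgeR adjusted p = 0.0433). COL6A1 ranged from 4.16 to 10.9 CPM over dorsal and from 9.58 to 25.5 CPM over ventral libraries, and the ranges overlapped. The calls of COL6A1 and COL6A6 each depended on most libraries, being lost without any one of 10 of the 12 (highest adjusted p = 0.122 and 0.109). Both were also lost with a replicate block of condition by number (edgeR adjusted p = 0.0822 and 0.0879), that of COL6A1 in thinned counts (0.0515) and that of COL6A6 in limma-voom (0.0659).

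FACIT collagens numbered 9, and 2 fell. COL14A1, a fibril-associated collagen of dense connective tissue, had 6.72, 4.56 and 3.6 CPM in dorsal stress and 5.06, 5.01 and 6.10 CPM in dorsal control libraries, against 13.9, 12.6 and 14.6 CPM in ventral stress and 9.90, 16.4 and 11.7 CPM in ventral control libraries. The regions did not overlap (-1.35 ± 0.20, edgeR adjusted p = 0.00433). COL9A1, a chain of cartilage type IX collagen, had 16.3, 10.7 and 8.91 CPM in dorsal stress and 12.5, 13 and 16.8 CPM in dorsal control libraries, against 25.6, 48.9 and 21.9 CPM in ventral stress and 27.0, 39.1 and 25.0 CPM in ventral control libraries. All ventral libraries were higher (-1.26 ± 0.25, edgeR adjusted p = 0.0166), and the call was lost without dorsal stress 2 or dorsal control 2 (highest adjusted p = 0.0589). The other 7 had adjusted p of 0.224 or above and ran from COL9A3 (-1.43 ± 0.54) to COL20A1 (0.79 ± 0.40). COL16A1 lay at -0.65 ± 0.25 (adjusted p = 0.233) and passed with the replicate number as a block (edgeR adjusted p = 0.0414). COL19A1, a FACIT gene known from interneurons of mouse brain, was listed under a placeholder name and had -0.27 ± 0.33 (edgeR adjusted p = 0.972).

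Both chains of the short-chain network collagen VIII, known from vessel walls and the cornea, fell. COL8A2 stood at 1.44, 1.27 and 2.29 CPM in dorsal stress and 1.93, 1.12 and 1.68 CPM in dorsal control libraries, against 3.52, 7.0 and 4.95 CPM in ventral stress and 2.00, 4.71 and 4.17 CPM in ventral control libraries. A ventral control library lay among the dorsal ones (-1.42 ± 0.30, edgeR adjusted p = 0.0240). COL8A1 ranged from 4.72 to 6.93 CPM over dorsal and from 7.16 to 15.2 CPM over ventral libraries, with no overlap (-0.97 ± 0.22, edgeR adjusted p = 0.0298). These calls were lost without any one of 7 and 10 libraries (highest adjusted p = 0.0795 and 0.0968). Both were also lost with a replicate block of condition by number (edgeR adjusted p = 0.0716 for COL8A2 and 0.0759 for COL8A1), and that of COL8A1 in limma-voom (0.0535).

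None of the 6 basement membrane genes of type IV passed. COL4A1 ranged from 17.6 to 24.3 CPM over dorsal and from 16.5 to 26.5 CPM over ventral libraries (-0.26 ± 0.16, edgeR adjusted p = 0.640). COL4A2 gave -0.52 ± 0.17 (adjusted p = 0.142), and COL4A6 gave 0.68 ± 0.26 (adjusted p = 0.231). COL4A3, COL4A4 and COL4A5 lay between -0.18 and 0.08 with SE from 0.41 to 0.51. The remaining 6 members did not pass either. They were COL15A1 (-0.82 ± 0.26) and COL18A1 (-0.43 ± 0.44) of the vessel-associated multiplexins, COL7A1 of anchoring fibrils (-0.01 ± 0.28), COL10A1 of growth cartilage (-0.07 ± 0.76), COL26A1 (-0.72 ± 0.50) and COL28A1 (0.35 ± 0.26). With the replicate number as a block COL4A6 and COL15A1 passed in edgeR (adjusted p = 0.0302 and 0.0453), and COL15A1 passed in DESeq2 (adjusted p = 0.0441).

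Chains that build one trimer can be set against each other within a library, which cancels its depth. The log2 ratio of 13 such pairs was compared between regions by an exact two-sided permutation test within condition, where 0.005 is the smallest p that 400 arrangements can give. The pairs and the test were chosen after the values above had been seen. In type I, COL1A1 over COL1A2 differed by 0.00 (exact permutation p = 0.990), with dorsal and ventral means of -1.04 and -1.04. In type IX, COL9A1 over COL9A2 had a mean of -1.01 in dorsal and 0.42 in ventral libraries. No dorsal library reached a ventral one, and the exact permutation p of 0.005 was 0.065 after adjustment over the pairs. COL9A2 over COL9A3 averaged 2.01 in dorsal and 0.72 in ventral libraries (exact permutation p = 0.01, adjusted 0.065), with overlapping libraries. In type VI, COL6A1 over COL6A3 averaged -1.27 in dorsal and -0.11 in ventral libraries (exact permutation p = 0.025, adjusted 0.065), again with overlap. Thus 5 of the 13 had an unadjusted p under 0.05 and 0 passed after adjustment. Over 13 pairs a lone permutation p of 0.005 adjusts to 0.065, so 1 pair by itself could not pass. The 0 is therefore no sign of equal ratios.

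Adjacent pairs of collagen genes occur in the RefSeq gene order of the sheep assembly ARS-UI_Ramb_v3.0. The adjoining type VI genes COL6A1 and COL6A2 had -1.30 and -0.79, and COL6A6 and COL6A5 had -3.66 and -1.51. The pair COL9A1 and COL19A1 had -1.26 and -0.27, and COL5A2 and COL3A1 had -0.44 and -0.88. In type IV, COL4A1 and COL4A2 had -0.26 and -0.52, COL4A4 and COL4A3 -0.01 and -0.18, and COL4A5 and COL4A6 0.08 and 0.68. Of all these adjacent pairs, 1 had both genes called, that of COL6A6 and COL6A5.

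Within each condition alone fewer genes passed. Dorsal against ventral in stressed ewes, COL13A1 was called (-2.50 ± 0.29, edgeR adjusted p = 0.00822), as it was in control ewes (-2.38 ± 0.29, adjusted p = 0.00781). It was 1 of 42 members each time, against 0.444% of all genes in stressed and 1% in control ewes. In stressed ewes 18 members had all dorsal libraries below all ventral ones and 4 had them above, against 7.67% and 6.07% of all genes. In control ewes the numbers were 10 and 2, against 6.22% and 5.44%. An unadjusted p under 0.05 was found for 16 members in each condition, against 7.86% of all genes in stressed and 8.67% in control ewes. COL6A5 had -1.79 ± 0.34 in stressed and -1.22 ± 0.33 in control ewes, COL1A2 -1.38 ± 0.28 and -1.11 ± 0.28, and COL17A1 1.28 ± 0.25 and 0.86 ± 0.25. Their edgeR adjusted p lay between 0.0594 and 0.0742 in stressed and between 0.113 and 0.186 in control ewes. In the FACIT class, which holds COL14A1, the lowest edgeR adjusted p was 0.0624 in stressed and 0.0752 in control ewes. The COL13A1 call in stressed ewes was lost without dorsal stress 2 or 3 (highest adjusted p = 0.0787), and that in control ewes without dorsal control 2 or 3 (highest 0.0622).

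The stress comparisons asked whether collagen levels differ between stressed and control ewes within a region. None of the 42 members passed in dorsal or in ventral tissue (edgeR), and 0% of all genes passed in either. DESeq2 and limma-voom called 0 members too. In dorsal tissue 2 members had an unadjusted p under 0.05 and in ventral tissue 1, against 0.854% and 0.797% of all genes. Both shares of all genes lie below what p-values without any effect would give at this threshold. The fit was thus cautious for stress, and the lack of calls does not show equal levels. The median log2 fold change of the members, stress minus control, was -0.10 in dorsal and 0.07 in ventral tissue, against 0.01 and -0.03 over all genes, and the median SE was 0.39 in both. Libraries did not overlap for 3 members in dorsal tissue, 2 lower and 1 higher in stress, against 2.75% and 2.38% of all genes. In ventral tissue it was 1 lower and 0 higher members, against 1.49% and 1.38%.

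COL6A3, the long chain of type VI collagen, was the member whose stress libraries lay below all control libraries in both regions. It had 10.1, 12.4 and 17.2 CPM in dorsal stress against 18.3, 22.8 and 18.8 CPM in dorsal control libraries, and 13.8, 12.3 and 17.5 CPM in ventral stress against 20.3, 29.3 and 18.3 CPM in ventral control libraries. Its log2 fold change was -0.60 ± 0.27 in dorsal tissue (edgeR adjusted p = 1.00, unadjusted 0.0469). In ventral tissue it was -0.64 ± 0.27 (edgeR adjusted p = 1.00, unadjusted 0.0354). Both regions came from the same ewes, so the ventral value is no independent repeat of the dorsal one. COL2A1, the cartilage fibril collagen, had 4.58, 3.19 and 5.15 CPM in dorsal stress against 7.27, 6.14 and 9.22 CPM in dorsal control libraries (-0.81 ± 0.31, edgeR adjusted p = 1.00, unadjusted 0.0242). In ventral tissue its values crossed, at 5.68 ± 1.53 CPM in stress and 5.83 ± 1.38 CPM in control libraries (SD, n = 3 each).

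Further members with the smallest p in dorsal tissue were COL22A1 (-0.86 ± 0.57) and COL26A1 (-0.85 ± 0.72), with COL25A1 at 0.90 ± 0.50. In ventral tissue they were COL3A1 (0.51 ± 0.31), COL1A1 (0.52 ± 0.37), COL10A1 (1.36 ± 1.05) and COL8A2 (0.51 ± 0.41). For the difference of the stress effects, dorsal minus ventral, 0 members and 0% of all genes passed in edgeR. An unadjusted p under 0.05 was found for 0 members and 0.258% of all genes for this difference, again fewer than without any effect. COL2A1 had the lowest p of the members for it (-0.77 ± 0.43, edgeR adjusted p = 1.00, unadjusted 0.103), followed by COL17A1 (0.43 ± 0.35), COL6A5 (-0.57 ± 0.47) and COL3A1 (-0.47 ± 0.44).

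**Figure D3:**
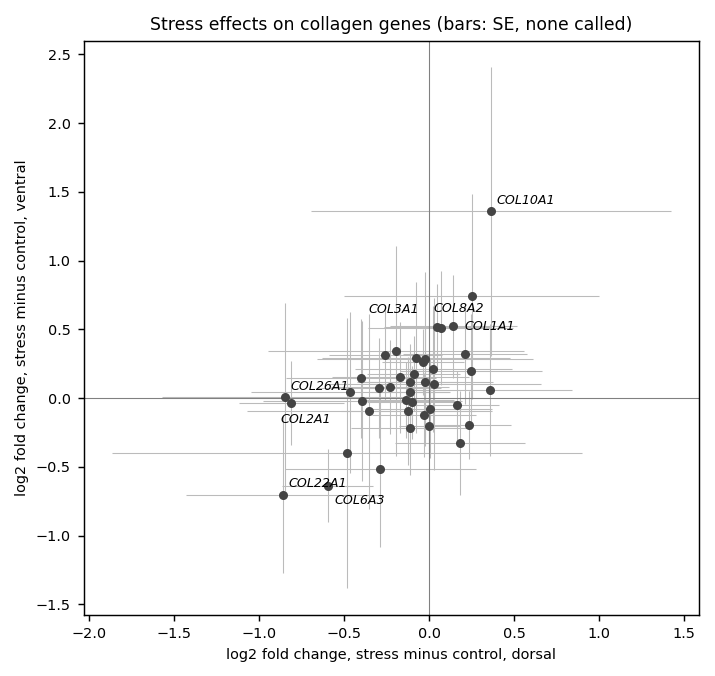
Log2 fold change of the 42 collagen genes, stress minus control, in dorsal (horizontal axis) and ventral tissue (vertical axis), with SE bars and the genes of smallest p named. Most points lie near the crossing of the zero lines, and COL6A3 and COL22A1 lie at the lower left.

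Many members also varied between libraries of the same group. The share of variance of log2(CPM + 0.1) that lay within groups had a median of 51.9% over the members, against 83.9% over all genes. It was below 20% for 5 members, namely COL13A1 (4.74%), COL14A1, COL17A1, COL6A5 and COL1A2, and above 90% for 7, the highest being COL12A1 (98.2%). COL12A1, a FACIT gene, had 20.5, 32.1 and 34.7 CPM in dorsal stress, 12.5, 64.6 and 43.5 CPM in dorsal control, 34.4, 22.2 and 48.6 CPM in ventral stress and 14.9, 33.8 and 53.6 CPM in ventral control libraries. The spread within each of these groups covered the differences between them.

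The first principal component of all genes held 51.5% of the variance and set ventral control 1 (-100.0) and ventral control 3 (103) farthest apart, with the groups overlapping. The second held 18.8%, negative in all dorsal and positive in all ventral libraries. Between these 2 libraries, 11 members were at least 2-fold higher in ventral control 1 and 12 at least 2-fold lower, 26.2% and 28.6%, against 24.6% and 26.5% of all genes. COL18A1, whose cleavage gives endostatin, was at 36.7 CPM in ventral control 1 and 6.30 CPM in ventral control 3. COL4A3, a basement membrane chain, was at 0.865 and 6.53 CPM in the same libraries.

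**Figure D4:**
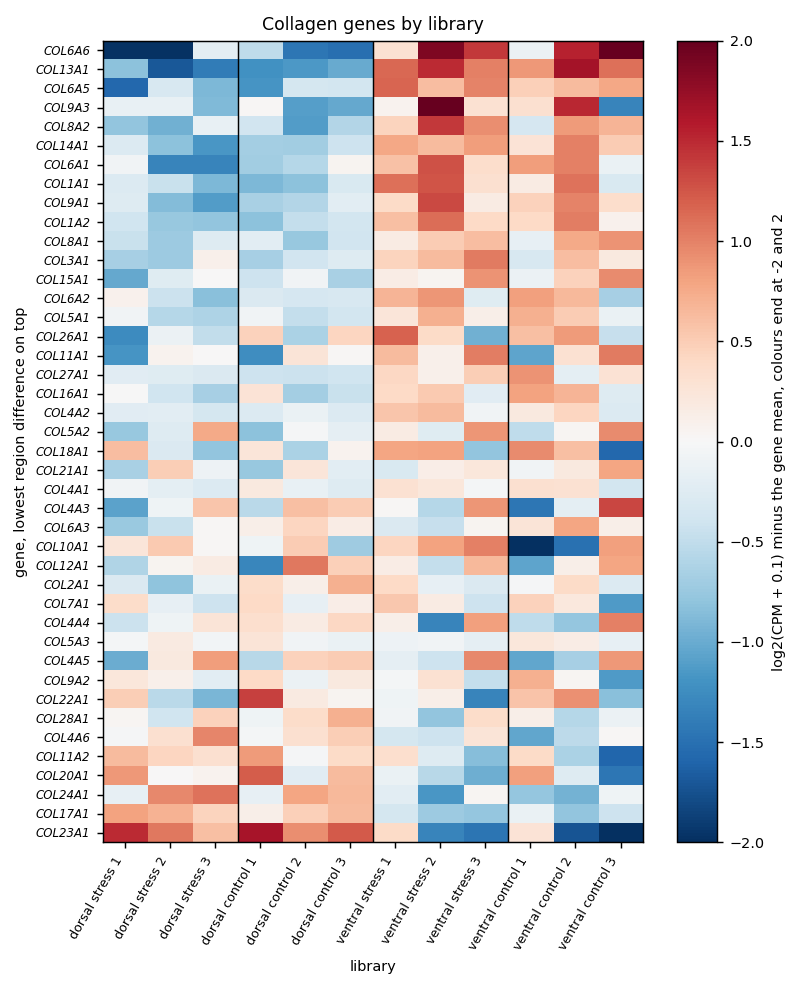
Level of the 42 collagen genes (rows, lowest region difference on top) in the 12 libraries (columns), as log2(CPM + 0.1) minus the mean of the gene. The upper rows are mostly blue in dorsal and red in ventral libraries, the lowest rows mostly the reverse, and many rows between change between libraries of the same group.

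Genes that make, bind or cut collagen were described by lists, with 4.51% of all genes as the background. Of 34 genes of collagen synthesis and crosslinking 33 were tested, of which 3 rose in dorsal tissue and 0 fell, with a median log2 fold change of -0.11. COLGALT2, which adds galactose to collagen, was at 119 ± 29.3 and 127 ± 23.9 CPM in dorsal stress and dorsal control, and at 49.7 ± 9.58 and 45.0 ± 9.42 CPM in ventral stress and ventral control (SD, n = 3 each). Its log2 fold change was 1.38 ± 0.18 (edgeR adjusted p = 0.00236). PCOLCE2, an enhancer of procollagen cutting (1.21 ± 0.22, adjusted p = 0.0113), and BMP1, the protease that removes the C-terminal propeptide (0.79 ± 0.18, adjusted p = 0.0296), rose as well in edgeR. PCOLCE went the other way without passing (-1.06 ± 0.29, edgeR adjusted p = 0.0754), and 23 of the 33 genes tested were negative.

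Of 13 collagen receptors 11 were tested, and 1 fell, ITGA11, an integrin chain that binds fibrillar collagen (-1.21 ± 0.24, edgeR adjusted p = 0.0187). The list median was -0.36. ADGRG1 (-0.45 ± 0.15) and the collagen-binding kinase DDR1 (0.41 ± 0.21) did not pass (adjusted p = 0.151 and 0.469). Of 14 genes of collagen breakdown 11 were tested, and 1 fell, the fibroblast surface protease FAP (-4.45 ± 0.41, edgeR adjusted p = 0.000456), while the median was -0.54. TIMP2 (-0.83 ± 0.24, adjusted p = 0.0956) and CTSK (-0.50 ± 0.28, adjusted p = 0.547) did not pass.

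Markers of fibroblasts moved in the same direction as the collagens that fell. Of 19 genes of meningeal and perivascular fibroblasts 18 were in the table, and 9 of these fell and 0 rose, with a median of -1.32. They included DCN (-2.01 ± 0.28, edgeR adjusted p = 0.00337), FMOD (-2.04 ± 0.30, 0.00462), ALDH1A2 (-2.03 ± 0.35, 0.00828) and CRABP2 (-1.62 ± 0.29, 0.0114). The summed level of the list was 1070 to 2438 CPM in dorsal stress, 1161 to 2565 CPM in dorsal control, 1491 to 2745 CPM in ventral stress and 1214 to 4169 CPM in ventral control libraries. PTGDS, which other brain cells also express, ranged from 330.5 to 3618 CPM over the libraries. Without PTGDS, a choice made after its level was seen, the sum was 306 to 349.5 CPM in dorsal stress and 299.7 to 410.1 CPM in dorsal control, against 631 to 843 CPM in ventral stress and 551 to 903 CPM in ventral control libraries. None of the list genes was at 0 in any library. The part of this difference in the fall of the collagen genes was not tested.

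Vessel markers gave a different count. Of 11 mural cell genes and 12 endothelial genes tested, 0 passed in edgeR, with 2 and 1 at an unadjusted p under 0.05, and the medians were -0.28 and -0.14. Mural sums ran from 262 to 307 CPM in dorsal stress and 240.0 to 309 CPM in dorsal control, against 364 to 373 CPM in ventral stress and 292 to 380.2 CPM in ventral control libraries, with at most 2 of 12 genes at 0. Endothelial sums ran from 312 to 358 CPM and 324 to 361 CPM in these dorsal groups, against 316 to 367 CPM and 315 to 391 CPM in the ventral ones, with 0 genes at 0. Choroid plexus genes, 11 tested, gave 3 that rose and 0 that fell. Their sum was 519 to 1248 CPM in dorsal stress and 890.5 to 3004 CPM in dorsal control, against 193 to 244 CPM in ventral stress and 178 to 554 CPM in ventral control libraries. Subiculum genes, 8 tested, gave 4 that fell, with sums of 71.6 to 115 CPM and 50.5 to 79.6 CPM in dorsal stress and dorsal control against 183 to 344 CPM and 180.0 to 368 CPM in ventral stress and ventral control. Of 8 striatum genes 3 fell, and of 6 thalamus genes tested 3 fell, with 0 rising in either list. SLC17A6 is in both the subiculum and the thalamus list and is counted as fallen in each. Neuron and glia lists moved too. Of 7 excitatory neuron genes 3 rose, and of 10 inhibitory neuron genes tested 1 rose and 3 fell. Of 8 dentate granule cell genes 3 fell, of 6 CA1 genes 1 fell, and of 5 CA3 genes tested 1 fell. All 7 oligodendrocyte genes were positive, with a median of 0.75, and 1 of them rose. Of 7 astrocyte and 7 microglia genes 0 passed in edgeR, and 0 had an unadjusted p under 0.05. Whether unequal shares of these cells and tissues bear on the collagen values was not tested.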

How the data were processed

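RNA taken up in TriReagent was turned into stranded polyA libraries (TruSeq kit), per the labels' protocols. The authors deposited 1 table of raw gene counts. The submitters' processing notes list these programs: featureCounts 2.0.0, SAMtools 1.9, Bowtie2 2.3.5.1, TopHat2 2.1.1, FastQC and bcl2fastq 2.20. For genome build, annotation, strand setting and multi-mapped reads nothing is given in the sources used here. Positions are therefore not printed, antisense partners cannot be told apart, and near-identical chains are uncertain. The deposited count columns carry the sample descriptions as names, with DG for libraries titled dorsal hippocampus and vHip for those titled ventral hippocampus. The titles do not spell out DG, and the regions are named here by the titles.

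In edgeR 4.0.16 (R 4.3.3), filterByExpr left 17806 genes. After TMM scaling, a robust quasi-likelihood fit used the 4 group means, and calls needed a Benjamini-Hochberg adjusted p under 0.05. The SE follows from the fold change and the square root of F. In simulated counts for dorsal against ventral (17806 genes, 200 changed), 26.2% of the 2-fold and 84.9% of the 4-fold changes were recovered. The changed genes were drawn from the better counted ones, so members such as COL6A6, COL10A1 and COL26A1 are not covered. Noise was drawn for each gene alone, without the gradient shared by libraries or the sharing of ewes between regions. A count is worth 0.0817 CPM in the shallowest library. P-values measure the spread between pools. The closest libraries of a group differed beyond sampling noise (chi-square per degree of freedom 20.2).

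The members, classes and lists were chosen with earlier results of these data known. The rule for naming took members called in any comparison, COL1A2, COL5A1 and COL25A1, the smallest p and highest CPM per class, the 5 smallest p for stress, and the leading list genes by p. Other members were named after their values were seen. Alternatives were RLE factors, other filters, DESeq2 1.42.0, limma-voom (limma 3.58.1), replicate blocks, a residual component, thinned counts and each library left out. Same-numbered stress and control libraries deviated together (correlations 0.29 to 0.73 in dorsal, 0.26 to 0.80 in ventral tissue). Some unlike numbers correlated more. Dorsal stress 3 had 0.59 with dorsal control 2 against 0.29 with dorsal control 3. Ventral stress 2 had 0.57 with ventral control 1 against 0.32 with ventral control 2. The main tests used no block, and the numbers entered only the replicate blocks among the alternatives. A pairing by number is not given by the labels.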

Additional observations from a re-analysis of the deposited data

How the results depend on the processing

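For dorsal against ventral, 11 members and 803 genes were called. DESeq2 called 17 and 1484, and a fit with the first residual component as covariate 25 and 3761. That component was drawn from the residuals of these same counts, so the larger numbers under it are no independent support. Leaving out 1 library gave 5 to 13 members and 420 to 1091 genes. In control ewes, where 1 member and 178 genes were called, DESeq2 gave 6 and 652, the residual component 15 and 2003, and leaving out 1 library 0 to 4 and 2 to 319. In stressed ewes, where 1 member and 79 genes were called, DESeq2 gave 10 and 521, the residual component 18 and 1589, limma-voom 27 genes, and leaving out 1 library 0 to 3 and 1 to 159. The cause was not tested. In dorsal tissue DESeq2 called 1 gene for stress. The stress comparisons and the difference of stress effects gave 0 calls without any single library.

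With the replicate number as a block, dorsal against ventral gave 20 members and 1375 genes, with 2 and 440 in control and 5 and 314 in stressed ewes. With a replicate block of condition by number it gave 9 members and 823 genes, 21.4% of the members and 4.62% of all genes. Of the members, COL6A1, COL6A6, COL8A1 and COL8A2 were lost and COL23A1 and COL3A1 were gained. COL25A1 was lost too. Whether equal numbers mean the same ewes in both regions is not known here. Of 6 same-numbered pairs across regions within a condition 4 correlated over 0.1 (-0.25 to 0.78). With each library set against every other group, 20 of 36 comparisons were highest at its own number. The 36 include groups of the other condition, which hold other ewes, so the 20 cannot tell whether regions are paired by number. The block changed no stress call.

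COL7A1, at -0.01, turned to 0.086 in limma-voom, 0.053 with the replicate block of 3 numbers, 0.055 with that of condition by number and 0.043 with the residual component, and ran from -0.18 to 0.14 without single libraries. Calls of COL13A1, COL14A1, COL1A2, COL6A5 and COL17A1 held under all 21 settings. The type IX ratio of COL9A1 to COL9A2 differed by -1.68 to -1.24 without single libraries. Low counts limit COL6A6, COL10A1, COL25A1 and COL26A1, and 3 pools a group limit every SE.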
